A study of Mus musculus with 8 samples.

Results

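The genes that break down platelet activating factor (PAF), together with the gene of its receptor, were followed in whole mouse lung. They were taken by name: every probe set of the array whose annotation names Pafah2, Pafah1b1, Pafah1b2, Pafah1b3, Pla2g7 or Ptafr and no other gene. All 6 genes were on the array, with 12 of its 12488 probe sets. The list was drawn up after a probe set of Pafah2 had been seen to be higher in ozone than in air in C3H/HeOuJ lungs, so the values of these 6 genes in that contrast are given as a description, without a test. Tests are given for their values in the other contrasts, except those of Pafah2 that share these arrays, and for genes outside the list. The differences between the strains' ozone effects include the contrast that led to the list and are not independent of it. The 4 groups were lungs of C3H/HeOuJ mice in ozone, C3H/HeOuJ mice in filtered air, C3H/HeJ mice in ozone and C3H/HeJ mice in filtered air, each read on 2 arrays. C3H/HeJ mice carry a defective endotoxin receptor gene, which is intact in C3H/HeOuJ mice. The labels give a duration of 72 h for the C3H/HeOuJ groups and none for the C3H/HeJ groups, and give neither the age of the mice nor the ozone concentration. They also do not say whether the arrays of a group, named 1a and 1b, came from separate animals, so the p-values rest on a spread between arrays that may be purely technical.

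PAF is an ether phospholipid with a short acetyl chain that activates platelets, neutrophils and macrophages and makes vessels and airways leaky. Its receptor, the product of Ptafr, is a G protein-coupled receptor that also binds some oxidised phospholipids. The signal ends when an acetylhydrolase removes the acetyl chain. Pafah2 and Pla2g7 encode related single-chain enzymes, one inside cells and one secreted into plasma mainly by macrophages, and both also cut the shortened chains of oxidised phospholipids, which form when ozone or other oxidants meet lung lipids. Pafah1b2 and Pafah1b3 encode the catalytic subunits of a separate intracellular enzyme, and Pafah1b1 its regulatory subunit, which is also known as Lis1 and binds the motor protein dynein.

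The deposited value of a probe set is a linear intensity that had been scaled to a common level on every array. Values at or below 69.6, the 20th percentile of all values, were treated as a floor, and 10953 probe sets that exceeded it on at least 2 of 8 arrays were tested. Of the 12 probe sets of the PAF genes 10 were tested. The other 2 were under the floor on all 8 arrays: Pafah1b3 161218_r_at lay between 4.84 and 21.2, and Ptafr 94157_i_at between 2.51 and 15.9. The intensities of different probe sets cannot be compared with each other, since probes differ in their binding, and in whole lung fewer cells of a type cannot be told apart from less RNA per cell. The lung markers Sftpc of alveolar type 2 cells (39537 to 100639) and Scgb1a1 of club cells (40169 to 68065) were bright on every array. Sftpd, another epithelial marker, was dim (98.1 to 328). The HeOuJ ozone arrays stood apart in the actin 5'/3' ratio, which sets a control probe set at one end of the actin transcript against that at the other and reflects RNA integrity and labelling. It was 0.766 and 0.756, against 0.598 and 0.603 on the HeOuJ air arrays, 0.505 and 0.530 on the HeJ ozone arrays and 0.498 and 0.432 on the HeJ air arrays. The Gapdh ratio was likewise highest on the HeOuJ ozone arrays, at 1.34 and 1.18, against 0.775 to 1.06 on the other 6. HeOuJ ozone 1a also lay apart on the first principal component (30.7% of the variance), at 53.2, against 19.3 for HeOuJ ozone 1b and -21.0 to 0.54 for the others. The rank correlation between the arrays of a group was 0.932 in HeOuJ ozone, against 0.952 to 0.961 in the other groups. Among markers of lung cells, the epithelial keratin genes Krt18 and Krt8 rose in HeOuJ ozone (log2 fold change 1.67, SE 0.17, adjusted p = 0.0136, and 0.99, SE 0.15, adjusted p = 0.0464, in limma). They were the only calls among 10 epithelial markers, of which 6 were higher and 4 lower. The summed intensity of the 10 was 220487 to 231390 in HeOuJ ozone, 141582 to 172056 in HeOuJ air, 146124 to 172816 in HeJ ozone and 160129 to 193954 in HeJ air. These sums are carried by bright probe sets such as that of Sftpc. Its log2 fold change in HeOuJ ozone was 0.92 (SE 0.29, adjusted p = 0.19 in limma). Of 10 endothelial markers 2 were higher and 8 lower in HeOuJ ozone, none past the threshold. The part of these differences between arrays in the results was not tested. Fits below that take the actin ratio as a covariate draw its slope only from differences within groups, the largest in HeJ air. The ratio was highest in HeOuJ ozone, so such fits cannot well separate it from that group.

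Pafah2 was read by a pair of probe sets. Probe set 104138_at had an intensity of 389.6 and 374 on the HeOuJ ozone arrays and of 57.4 and 51.5 on the HeOuJ air arrays. It had 243 and 203 on the HeJ ozone arrays and 159 and 248 on the HeJ air arrays. The HeOuJ air arrays were thus the low ones, both under the floor, and the HeOuJ ozone arrays were the highest of the 8, while the HeJ groups lay between them and overlapped. Of all probe sets tested, 11.9% had their highest 2 values on the HeOuJ ozone arrays, against 3.23% to 3.82% for the other groups. From the highest to the lowest, the group means were 382 ± 11.3 in HeOuJ ozone, 223 ± 28.4 in HeJ ozone, 204 ± 62.9 in HeJ air and 54.5 ± 4.16 in HeOuJ air (SD, n = 2 each). In this order the HeJ neighbours did not differ beyond their spread, and the arrays of the outer groups did not overlap those of HeJ.

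The ozone level of this probe set in HeOuJ lungs was at least 5.48-fold the air level, a bound because the air arrays were at the floor, and the fitted log2 fold change was 2.45 (SE 0.37). The same low air arrays enter the comparison of the strains in air, in which the HeOuJ level was at least 2.86-fold lower than the HeJ level (log2 fold change -1.51, SE 0.37). With the actin ratio as a covariate that value was -0.34 (SE 0.93). In ozone the HeOuJ level was above the HeJ level, with a log2 fold change of 0.78 (SE 0.37). These 3 values share arrays with the contrast by which Pafah2 was noticed and are a description.

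The fold change that does not share those arrays is the ozone effect in C3H/HeJ. There the log2 fold change of 104138_at was 0.16 (SE 0.37), with a 95% interval of -0.68 to 1.00, and it did not pass in limma (adjusted p = 1). It was 0.66 (SE 0.51) with the actin ratio as a covariate. The ozone and air arrays of C3H/HeJ overlapped. Changes within that interval were not excluded by these arrays. The interval is not a limit of detection, since no probe set at all passed in limma for ozone in C3H/HeJ.

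**Figure D1:**
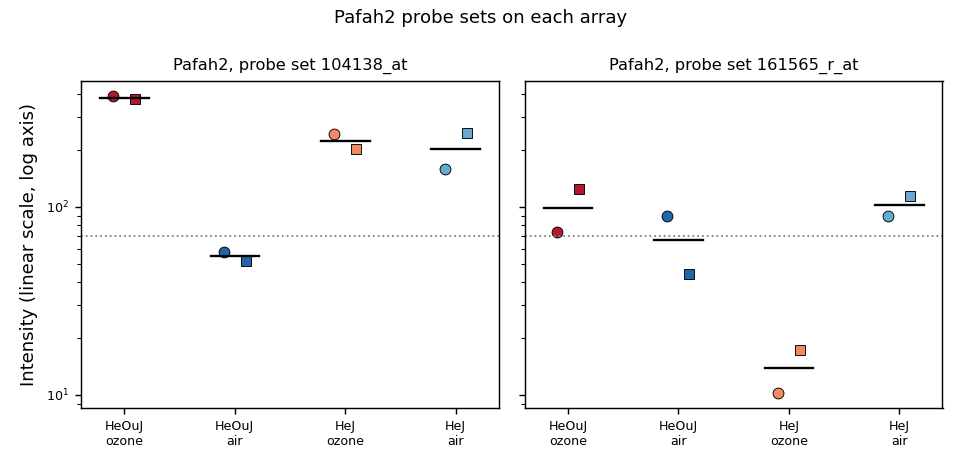
Intensity of the Pafah2 probe sets on each array (linear intensity on a logarithmic axis) in the 4 groups. Circles are arrays 1a, squares are arrays 1b, bars are group means, and the dotted line is the floor of 69.6; 104138_at is lowest in HeOuJ air (57.4 and 51.5), whereas 161565_r_at is lowest in HeJ ozone (10.2 and 17.4).

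The other probe set of Pafah2, 161565_r_at, did not follow this order. Its name carries the suffix that the manufacturer gave to probe sets for which some design rules had been relaxed, and the annotation ties it to another sequence record than 104138_at. It had 73.9 and 124 on the HeOuJ ozone arrays, against 89.3 and 43.9 on the HeOuJ air arrays, which overlapped. It had 10.2 and 17.4 on the HeJ ozone arrays, against 89.9 and 114 on the HeJ air arrays. The low group of this probe set was therefore HeJ ozone, where 104138_at had 243 and 203. Probe set 161565_r_at was near the floor of 69.6 throughout, with a highest value of 124. It was under the floor on both HeJ ozone arrays and on HeOuJ air 1b.

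With the floor in place, 161565_r_at had a log2 fold change for ozone over air of 0.28 (SE 0.34) in C3H/HeOuJ. Its value in C3H/HeJ was -0.54 (SE 0.34), which is at least 1.46-fold lower in ozone and did not pass in limma (adjusted p = 1, 95% interval -1.31 to 0.22). The size of the HeJ value depended on the floor: it was -1.76 with the floor at the 10th percentile and -1.25 with a pseudocount of 50 in its place. With the floor unchanged and the actin ratio as a covariate the HeJ value was -0.24. With that covariate the HeOuJ value was 0.93 (SE 0.84). The HeOuJ value of this probe set depended on single arrays: it was 0.66 without HeOuJ ozone 1a and -0.093 without HeOuJ ozone 1b. Over the 8 arrays the Pafah2 probe sets correlated at 0.29 (Pearson) and 0.36 (Spearman). Of the 2 probe sets of the gene, only 104138_at had HeOuJ ozone arrays that did not overlap the air arrays.

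RefSeq promoter windows were matched for 5 of the 6 genes, all but Pafah1b3. They give 4 start sites of Pafah2 on mouse chromosome 4 and 1 of its secreted relative Pla2g7 on chromosome 17. The window from 250 bases before to 50 bases after the outermost Pafah2 start is printed here because Pafah2 is the gene the comparison turns on, and that of Pla2g7 is printed as the related gene for comparison. Which Pafah2 transcripts the probe sets read was not determined. They are chr4:134396070-134396369 and chr17:43568201-43568500 of GRCm38.p6, both on the plus strand, and capitals mark the motif matches described next.
Pafah2: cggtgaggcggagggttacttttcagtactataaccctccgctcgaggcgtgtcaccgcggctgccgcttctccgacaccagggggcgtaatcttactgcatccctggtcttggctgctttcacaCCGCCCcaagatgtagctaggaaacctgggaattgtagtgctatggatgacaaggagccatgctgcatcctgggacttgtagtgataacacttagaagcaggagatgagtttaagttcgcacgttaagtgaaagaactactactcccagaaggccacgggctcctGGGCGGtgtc
Pla2g7: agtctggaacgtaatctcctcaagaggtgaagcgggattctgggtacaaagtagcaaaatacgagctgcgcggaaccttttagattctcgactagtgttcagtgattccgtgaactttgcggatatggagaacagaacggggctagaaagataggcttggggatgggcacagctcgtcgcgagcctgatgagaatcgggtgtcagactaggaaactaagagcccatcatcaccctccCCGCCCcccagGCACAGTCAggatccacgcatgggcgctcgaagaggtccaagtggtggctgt
A search of both strands covered TGACNNNGC, the core of the antioxidant response element, GGGCGG, the GC box, CCAAT, the E-box CACGTG and the heat shock element GAANNTTC; these motifs do not overlap each other in the windows. The Pafah2 window held the GC box at positions 126 to 131 on the minus strand and 291 to 296 on the plus strand, counted from 1 at the 5' end, and none of the other 4 motifs. The Pla2g7 window held a GC box at 238 to 243 and a match to the antioxidant response element core at 249 to 257, both on the minus strand. Among 32851 RefSeq windows of 300 bases, 35.7% held the GC box and 12.4% the antioxidant response element core, against 37.4% for CCAAT, 7.15% for the E-box and 7.86% for the heat shock element. Such matches are a description of letters and not of binding.

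Pla2g7, the secreted and lipoprotein-bound hydrolase, was dim and did not separate the groups. Its probe set had 229.6 and 122 on the HeOuJ ozone arrays, against 195 and 145 on the HeOuJ air arrays. It had 70.9 and 143 on the HeJ ozone arrays, against 135 and 170.4 on the HeJ air arrays. The arrays of ozone and air overlapped in both strains. The log2 fold change in HeOuJ was -0.0046 (SE 0.47). In HeJ it was -0.59 (SE 0.47), which did not pass in limma (adjusted p = 1, 95% interval -1.67 to 0.49).

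Pafah1b1, the regulatory subunit of the other intracellular acetylhydrolase, was lower in ozone than in air in HeOuJ. It had 944 and 1346 on the HeOuJ ozone arrays, against 1929 and 1889.6 on the HeOuJ air arrays. It had 1847 and 1639.6 on the HeJ ozone arrays, against 1031 and 1822 on the HeJ air arrays. The HeOuJ arrays of ozone lay under those of air without overlap, whereas HeJ air 1a was as low as the HeOuJ ozone arrays and the HeJ groups overlapped. The log2 fold change was -0.76 (SE 0.27) in HeOuJ. In HeJ it was 0.34 (SE 0.27) and did not pass in limma (adjusted p = 1). The difference of the strains' ozone effects was -1.10 (SE 0.38) and did not pass in limma (adjusted p = 0.337). With the actin 5'/3' ratio of the arrays as a covariate the HeOuJ value was 0.62 (SE 0.44), the opposite direction. That fit cannot well separate the ratio from the HeOuJ ozone group.

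Pafah1b2, a catalytic subunit, was read by 3 probe sets that did not agree. The first, 160187_at, had 1042 and 1001 on the HeOuJ ozone arrays, against 1191 and 960.1 on the HeOuJ air arrays, and 1029.6 and 1252 on the HeJ ozone arrays, against 1099 and 1015 on the HeJ air arrays. It was level over all 8 arrays, with log2 fold changes for ozone of -0.07 (SE 0.18) in HeOuJ and 0.10 (SE 0.18) in HeJ. The HeOuJ value was -0.36 (SE 0.46) with the actin ratio as a covariate.

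Probe set 95404_at of Pafah1b2 had 1347 and 1426 on the HeOuJ ozone arrays, against 1154 and 837 on the HeOuJ air arrays, and 911 and 759.7 on the HeJ ozone arrays, against 1111 and 790.1 on the HeJ air arrays. The HeOuJ ozone arrays were the highest of the 8, as for 11.9% of all probe sets tested. Probe set 99023_at had 917 and 771 on the HeOuJ ozone arrays, against 737 and 332 on the HeOuJ air arrays, and 657 and 413 on the HeJ ozone arrays, against 554 and 455 on the HeJ air arrays. The HeOuJ ozone arrays were again the highest, and array 1a exceeded array 1b in all 4 groups, as it did for 1097 of the 10953 probe sets tested. The log2 fold changes for ozone in HeOuJ were 0.50 (SE 0.23) and 0.77 (SE 0.39), and in HeJ -0.17 (SE 0.23) and 0.05 (SE 0.39). Without HeOuJ air 1a they were 0.73 and 1.34 in HeOuJ, and without HeOuJ air 1b 0.26 and 0.19. With the actin ratio as a covariate the HeOuJ values were -0.059 (SE 0.56) and 0.72 (SE 1.04). Over the 8 arrays these 2 probe sets had a Pearson correlation of 0.85 with each other, and of -0.14 and 0.04 with 160187_at.

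Pafah1b3, the other catalytic subunit, had 634 and 532 on the HeOuJ ozone arrays, against 392 and 499.6 on the HeOuJ air arrays. It had 468 and 384 on the HeJ ozone arrays, against 463 and 239 on the HeJ air arrays. The HeOuJ ozone arrays were the highest of the 8, as for 11.9% of all probe sets tested, and the HeJ groups overlapped. The log2 fold changes for ozone were 0.39 (SE 0.36) in HeOuJ and 0.35 (SE 0.36) in HeJ, close to their standard errors. With the actin ratio as a covariate the HeOuJ value was -0.95 (SE 0.78).

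The receptor gene Ptafr had a pair of tested probe sets with different patterns. Probe set 94158_f_at, whose suffix marks probes that may also match related sequences, had 207 and 253 on the HeOuJ ozone arrays, against 280.1 and 322 on the HeOuJ air arrays. It had 339 and 375 on the HeJ ozone arrays, against 332 and 243 on the HeJ air arrays. Ozone was thus below air in HeOuJ and above air in HeJ, with no overlap in either strain. Of all probe sets, 43.4% did not overlap in HeOuJ and 36.5% in HeJ. The log2 fold changes were -0.39 (SE 0.33) in HeOuJ and 0.33 (SE 0.33) in HeJ, and their difference of -0.72 (SE 0.47) did not pass in limma (adjusted p = 0.621). The HeOuJ value was -1.11 (SE 0.84) with the actin ratio as a covariate.

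Probe set 94159_at of Ptafr varied most between arrays of a group. It had 383 and 487 on the HeOuJ ozone arrays, against 500.4 and 197 on the HeOuJ air arrays. It had 245 and 99.5 on the HeJ ozone arrays, against 547 and 91.4 on the HeJ air arrays. The spread within HeJ air (319 ± 322, SD, n = 2) covered the level of every other group. Its log2 fold changes of 0.46 (SE 0.84) in HeOuJ and -0.52 (SE 0.84) in HeJ were smaller than their standard errors, and with the actin ratio as a covariate the HeOuJ value was -2.59 (SE 1.83). The Ptafr probe sets had a Pearson correlation of -0.23 with each other over the 8 arrays.

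**Figure D2:**
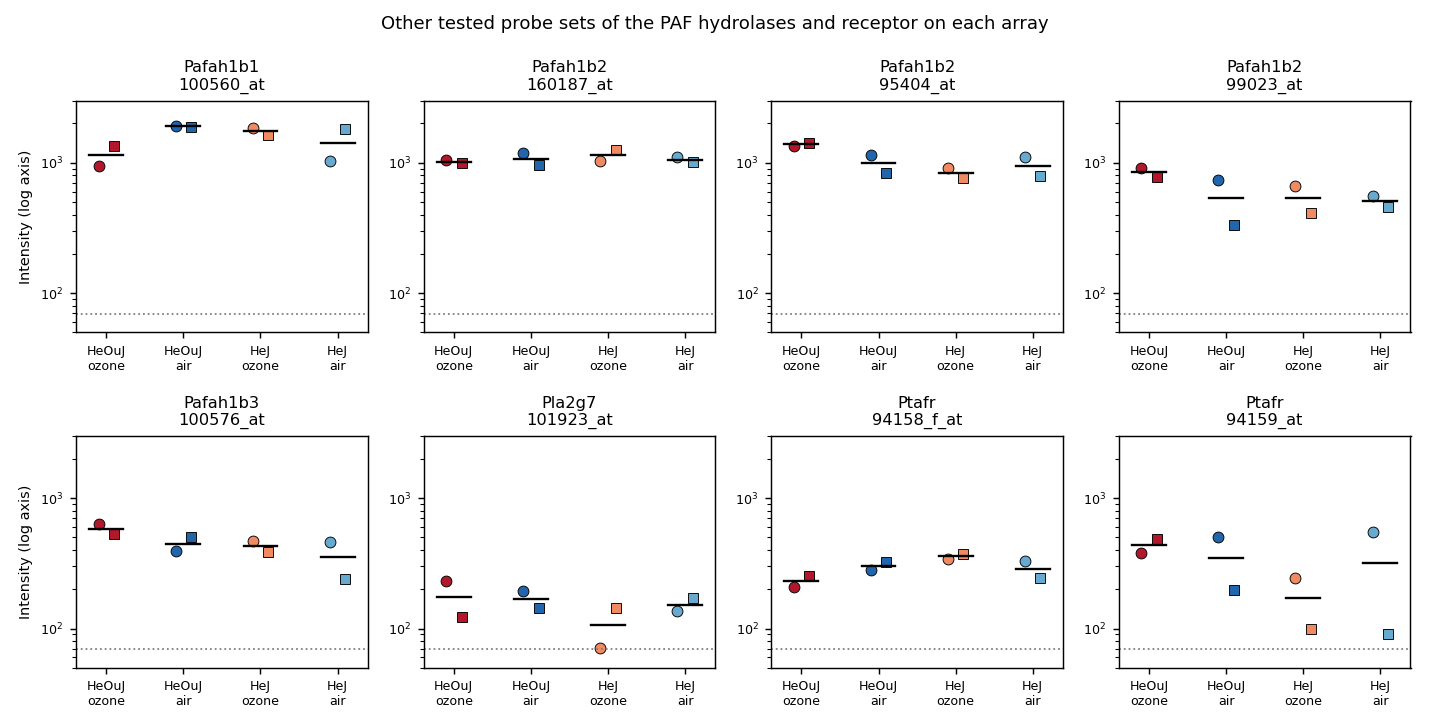
Intensity of the 8 other tested probe sets of the PAF genes on each array (logarithmic axis, same range in every panel), by group. Circles are arrays 1a, squares are arrays 1b, bars are group means and the dotted line is the floor of 69.6; for Pafah1b1 the HeOuJ ozone arrays (944 and 1346) lie under the HeOuJ air arrays, and for Ptafr 94159_at the HeJ air arrays span 91.4 to 547.

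Pla2g7 and Ptafr are genes of macrophages and neutrophils, so markers of these cells are given beside them. Of 17 macrophage and monocyte markers 15 were on the array, and Marco, a scavenger receptor of alveolar macrophages, was under the floor on all arrays. Their summed intensity ran from 56012 to 62641 on the HeOuJ ozone arrays, against 46013 to 55183 on the HeOuJ air arrays, and from 38835 to 44344 on the HeJ ozone arrays, against 42642 to 48431 on the HeJ air arrays. These sums are carried by bright probe sets such as that of Lyz2 (17124 to 32633), the macrophage and neutrophil lysozyme. Marker by marker, 7 of the 14 tested were higher and 7 lower in HeOuJ ozone (median -0.02 on the log2 scale). The only call among them was Chil3, which encodes a lectin secreted by macrophages and fell (-1.19, SE 0.18, adjusted p = 0.0464 in limma). Of 16 neutrophil markers 14 were on the array, none under the floor on all arrays, with sums of 9053 to 10920 in HeOuJ ozone, 9595 to 10227 in HeOuJ air, 8738 to 9367 in HeJ ozone and 9032 to 9199 in HeJ air. Of the 13 tested, 9 were higher and 4 lower in HeOuJ ozone, none past the threshold. In HeJ ozone 3 macrophage markers were higher and 11 lower, and 6 neutrophil markers higher and 7 lower, with no call. For HeOuJ against HeJ in ozone, 9 macrophage markers were higher and 5 lower, and 8 neutrophil markers higher and 5 lower. Calls in limma there were Cd68 (1.29, SE 0.18, adjusted p = 0.0329), Fabp1 (1.89, SE 0.33, adjusted p = 0.0483) and Lcn2 (1.48, SE 0.17, adjusted p = 0.0236). The part of these markers in the values of Pla2g7 and Ptafr was not tested.

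Counted over the 10 tested probe sets, 6 had a positive and 4 a negative log2 fold change for ozone in HeOuJ, with a median of 0.34, beside a median of 0.02 over all 10953 probe sets. The arrays of ozone and air did not overlap for 6 of the 10 in HeOuJ, beside 43.4% of all probe sets. Of these 4 were higher, beside 23.0% of all, and 2 lower, beside 20.4%. Only Pafah2 104138_at had an adjusted p under 0.05 in limma, beside 0.456% of all probe sets in either direction and 0.128% higher, and since it was picked from this contrast nothing is read from that count. That call was lost, although the log2 fold change stayed between 2.42 and 2.48, in each of the 8 fits that left out 1 array, among them the fits without HeJ arrays. With the actin ratio as a covariate the value was 3.52 (SE 0.87) and was not called.

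In C3H/HeJ, 6 of the 10 were positive and 4 negative, with a median of 0.08, beside 0.01 over all probe sets. The arrays did not overlap for 2 of the 10, beside 36.5% of all probe sets, 1 of them higher (19.5% of all) and 1 lower (17.1% of all). None of the 10 passed in limma, beside 0% of all probe sets; at an unadjusted p under 0.05 there were 0 of the 10 and 476 of the 10953.

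**Figure D3:**
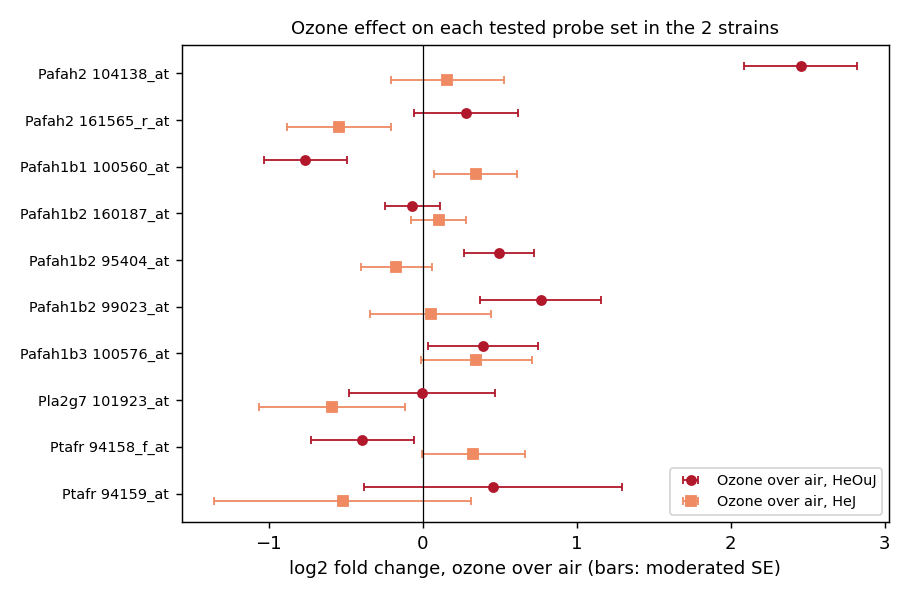
Log2 fold change of ozone over air for the 10 tested probe sets of the PAF genes in C3H/HeOuJ (circles) and C3H/HeJ (squares), with the moderated standard error of the model as bars. Pafah2 104138_at in HeOuJ stands at 2.45, and every other value lies between -0.76 and 0.77.

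Comparing the strains directly, the 8 tested probe sets of the 5 genes other than Pafah2 gave no call. For HeOuJ against HeJ in air, 0.0456% of all probe sets passed in limma, none of the 8 did, and 0 of the 8 had an unadjusted p under 0.05; the smallest adjusted p of the 8 was 0.965. For HeOuJ against HeJ in ozone, 0.977% of all probe sets passed and none of the 8, while 2 of the 8 had an unadjusted p under 0.05. They were Pafah1b2 95404_at, with a log2 fold change of 0.74 (SE 0.23, adjusted p = 0.153), and Pafah1b1, with -0.63 (SE 0.27, adjusted p = 0.268). In ozone the arrays of the strains did not overlap for 8 of all 10 probe sets, beside 47.8% of all probe sets. In air they did not overlap for 3 of 10, beside 35.1%. Both counts include the Pafah2 probe sets, which did not overlap in ozone or in air. The other one in air was Pafah1b1. Since Pafah2 was noticed on the same HeOuJ arrays, these counts are a description.

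For the difference of the ozone effects, 0% of all probe sets passed in limma and none of the 8. At an unadjusted p under 0.05 there were 1252 of the 10953 and 1 of the 8, Pafah1b1. Averaged over the strains, ozone against air was called for 0.0183% of all probe sets and for none of the 8, with 0 at an unadjusted p under 0.05. Averaged over exposures, HeOuJ against HeJ was called for 0.155% of all probe sets and none of the 8, with 1 at an unadjusted p under 0.05, Pafah1b2 95404_at at 0.40 (SE 0.16).

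The probe sets whose pattern over the 8 arrays was most like that of Pafah2 104138_at were ranked by the Pearson correlation of log2 intensity among 9683 tested probe sets that name 1 other gene. The 5 highest were those of Ghrl (0.972), which encodes the hormone ghrelin, Csnk2a1 (0.969), a catalytic subunit of casein kinase 2, Reg3g (0.956), an antibacterial lectin, Prelid1 (0.948), a lipid carrier of mitochondria, and Pts (0.942), an enzyme of tetrahydrobiopterin synthesis. Ghrl had 161 and 176 on the HeOuJ ozone arrays, against 34.0 and 43.5 on the HeOuJ air arrays, and 139 and 143 on the HeJ ozone arrays, against 99.2 and 159 on the HeJ air arrays. Reg3g had 1401 and 1313 on the HeOuJ ozone arrays, against 249.7 and 286 on the HeOuJ air arrays, and 803 and 874 on the HeJ ozone arrays, against 493 and 562 on the HeJ air arrays. All 5 shared with Pafah2 their lowest values on the HeOuJ air arrays. For the tested probe sets as a whole, 9.60% had their lowest 2 values on the HeOuJ ozone arrays, 3.77% on the HeOuJ air arrays, 4.07% on the HeJ ozone arrays and 3.48% on the HeJ air arrays. Below the floor on both HeOuJ air arrays and above it on the other 6, as Pafah2 104138_at was, were 22 of the 10953 probe sets.

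The 5 probe sets most like Pafah2 161565_r_at were others: Use1 (0.962), a membrane fusion protein of the endoplasmic reticulum, Aldh18a1 (0.959), an enzyme of proline synthesis, Btd (0.950), which recycles biotin, Gabrr1 (0.935), a GABA receptor subunit, and Asb6 (0.933), an adaptor of a ubiquitin ligase. Like 161565_r_at, the probe sets of Aldh18a1 (16.4 to 130) and Gabrr1 (18.3 to 135) lay near or under the floor. Those of Use1, Btd and Asb6 were above it on every array. The likeness is a correlation over 8 arrays chosen as the highest of 9683, and the arrays of a group share their treatment.

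**Figure D4:**
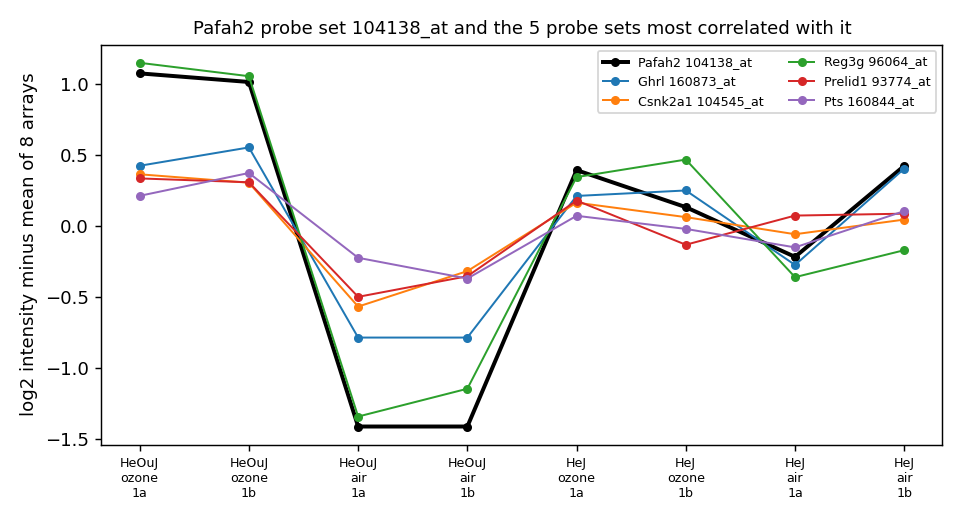
Log2 intensity (after the floor) minus its mean over the 8 arrays, for Pafah2 104138_at (black) and the 5 probe sets most correlated with it, array by array from HeOuJ ozone to HeJ air. All 6 lines have their lowest points on the HeOuJ air arrays.

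Genes of the wider pathway were taken as lists chosen by function, with 1 probe set per gene. In neither strain did any gene of the lists pass for ozone against air in limma, beside 0.456% of all probe sets in HeOuJ and 0% in HeJ. Of 18 genes of PAF and ether lipid synthesis 8 were tested, 4 higher and 4 lower in HeOuJ ozone (median 0.02) and 4 higher and 4 lower in HeJ ozone (median 0.01). Lpcat1, an acyltransferase of surfactant and PAF synthesis in alveolar cells, had 3466 and 3424 on the HeOuJ ozone arrays, against 2739 and 2943 on the HeOuJ air arrays. Its HeOuJ ozone arrays lay above the air arrays, as for 23.0% of all probe sets. The log2 fold change was 0.28 (SE 0.12, adjusted p = 0.33 in limma). In HeJ it had 3358 and 2899, against 3686 and 3643 in air. There the ozone arrays lay under the air arrays, as for 17.1% of all probe sets. The HeJ log2 fold change was -0.23 (SE 0.12, adjusted p = 1 in limma).

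Of 19 phospholipases A2, which free the chain that the acetyl group of PAF replaces, 9 were tested, 4 higher and 5 lower in HeOuJ ozone and 5 higher and 4 lower in HeJ ozone (medians 0.00 and 0.09). Pla2g5, a secreted member, had 178 and 141 on the HeJ ozone arrays, against 51.7 and 56.4 on the HeJ air arrays. That is a level at least 2.27-fold higher in HeJ ozone (log2 fold change 1.18, SE 0.42), which did not pass in limma (adjusted p = 1). In HeOuJ it had 58.9 and 69.7 in ozone, against 179 and 72.5 in air.

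Of 20 genes that handle oxidised phospholipids and lipoproteins 16 were tested, 8 higher and 8 lower in HeOuJ ozone and 7 higher and 9 lower in HeJ ozone (medians -0.08 and -0.10). Pon1, a paraoxonase carried on lipoproteins, had 2381 and 1613 on the HeOuJ ozone arrays, against 4204 and 3534 on the HeOuJ air arrays, with a log2 fold change of -0.98 (SE 0.22, adjusted p = 0.0939 in limma). In HeJ it had 2790.2 and 2076 in ozone, against 3253 and 3689 in air (-0.53, SE 0.22, adjusted p = 1 in limma). The ozone arrays lay under the air arrays in both strains, and in neither did the gene pass. Alox15, a lipoxygenase that oxidises phospholipids, was under the floor on both HeJ ozone arrays (52.3 and 58.7), against 357 and 254 on the HeJ air arrays. Its level was at least 4.33-fold lower in HeJ ozone, and it did not pass in limma (adjusted p = 0.86).

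Of 22 genes of PAF receptor signalling 15 were tested, 9 higher and 6 lower in HeOuJ ozone and 5 higher and 10 lower in HeJ ozone (medians 0.01 and -0.07). The smallest p in HeOuJ was that of Itpr2, a calcium channel of the endoplasmic reticulum opened by inositol trisphosphate, with a log2 fold change of -0.55 (SE 0.18, adjusted p = 0.204 in limma). Among the listed G protein alpha subunits, Gnaq had 0.78 (SE 0.33, adjusted p = 0.298 in limma) in HeOuJ. Gnai3 had -0.80 (SE 0.34, adjusted p = 0.310 in limma) and was named after its values were seen. Other alpha subunits of the list, such as Gnai2, are not given here. Plcg2, a phospholipase C of blood cells, had -1.17 (SE 0.47, adjusted p = 1 in limma) in HeJ.

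Of 26 partners of Pafah1b1 in dynein, dynactin and the reelin pathway 20 were tested, 12 higher and 8 lower in HeOuJ ozone and 10 higher and 10 lower in HeJ ozone (medians 0.11 and -0.01). Reln, which encodes the secreted protein reelin that acts upstream of Pafah1b1 in the brain, had 40.1 and 54.9 on the HeOuJ ozone arrays, against 365 and 260.4 on the HeOuJ air arrays. Both HeOuJ ozone arrays were under the floor, and the level was at least 4.43-fold lower there than in air, which missed the threshold in limma (adjusted p = 0.0556). In HeJ it had 303 and 239 in ozone, against 350.2 and 267 in air, which overlapped. Dctn3, a dynactin subunit, had a log2 fold change of 0.51 (SE 0.17, adjusted p = 0.205 in limma) in HeOuJ ozone.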

How the data were processed

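Lung RNA was read on Affymetrix mouse expression arrays; sample titles gave the 4 groups of 2 arrays. The deposited intensity values are on a linear scale, 1 per probe set and array. Their 2% trimmed means, 800.385 to 800.413, show that the authors had scaled all arrays alike, with software not given in the sources used here. The number of arrays limits the precision. After 66 control probe sets were set aside, values were raised to the floor (the 20th percentile), log2 was taken, and probe sets exceeding it on 2 or more arrays were fitted in limma 3.58.1 under R 4.3.3 (4 group means, eBayes with an intensity trend, 4 residual and 4.54 prior degrees of freedom). The Benjamini-Hochberg adjustment ran over all 10953 probe sets, with a threshold of 0.05. Genes were named by an annotation of 2016, updated through RefSeq, which matched all 6 members. A group at the floor gives a lower bound of a fold change: the mean log2 value of the bright group against the floor.

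The members and gene lists were chosen with earlier results of these data known. Named were all members, the 5 probe sets most correlated with each Pafah2 probe set, and, from each list, members past the threshold or otherwise the 2 of smallest p in ozone against air in each strain, of which examples are printed. Lists used the probe set of highest mean per gene. The fit was tested on simulated data. Alternatives covered normalisation, floor, filter, variance trend, the set of arrays fitted, blocks by replicate letter, the actin 5'/3' ratio as a covariate and leaving out each array; array weights were added after seeing the data. Promoter sequences came from RefSeq (GRCm38.p6). Python 3.11.15 with matplotlib 3.10.9 drew the figures.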

Additional observations from a re-analysis of the deposited data

Results flagged for a closer look

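Ptafr 94158_f_at, a probe set of the PAF receptor gene, had lower intensity on both HeOuJ ozone arrays (207 and 253) than on either HeOuJ air array (280.1 and 322), and higher intensity on both HeJ ozone arrays (339 and 375) than on either HeJ air array (332 and 243). The arrays thus moved in opposite directions in the strains without overlap, although in HeJ the nearest values were 339 and 332. Of all probe sets, 43.4% did not overlap between ozone and air in HeOuJ and 36.5% in HeJ. The log2 ozone effect was lower in HeOuJ than in HeJ by a difference of -0.72 (SE 0.47), which did not pass in limma (adjusted p = 0.621). With the actin 5'/3' ratio as a covariate the HeOuJ ozone effect was -1.11 (SE 0.84). The other tested probe set of the gene, 94159_at, overlapped in both strains and had the opposite signs. Its values were 0.46 (SE 0.84) in HeOuJ and -0.52 (SE 0.84) in HeJ.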

How the results depend on the processing

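Pafah2 was picked from ozone against air in C3H/HeOuJ, so nothing is read from the count in that contrast or from its changes between settings. The count of PAF gene probe sets called for ozone against air in C3H/HeOuJ was 1 (Pafah2 104138_at) and stayed 1 with quantile normalisation, a floor at the 10th percentile, a pseudocount of 50 and the replicate letters as a replicate block. It was 0 with median centring, no filter on dim probe sets, a filter at the median probe set, no intensity trend, only the HeOuJ arrays in the fit, the actin ratio as a covariate or array weights, and 0 to 0 over the 8 fits that each left out 1 array. The filter at the median leaves Pafah2 out, so that count says nothing of it. In the other 6 comparisons the count was 0 in every setting that was run. The log2 fold change of 104138_at in HeOuJ ran from 2.05 with the pseudocount to 3.52 with the actin ratio as a covariate. Under that covariate signs turned for Pafah1b1 (0.62), Pafah1b2 95404_at (-0.059), Pafah1b3 (-0.95) and Ptafr 94159_at (-2.59) in HeOuJ ozone, and for Pafah2 161565_r_at between the strains in air (0.35). Between the strains in air, 104138_at was -0.34 under it. The slope of the covariate came only from differences within groups, the largest in HeJ air, so these values cannot well separate the ratio from the groups. The value of 161565_r_at in HeOuJ was -0.093 to 0.66 over the fits that left out 1 array. The cause was not tested. Over all probe sets, calls for ozone in HeOuJ numbered 50; they were 16 with median centring, 115 with the pseudocount, 172 with the filter at the median, 6 with array weights, 0 with the covariate, no trend or only the HeOuJ arrays, and 0 to 22 over the fits without 1 array. For ozone in HeJ they numbered 0, against 8 with no filter, 1 with the filter at the median and 2 with array weights. The labels do not say whether the replicate letters mark anything shared between groups. Same-letter deviations from the group means correlated between -0.01 and 0.14 over probe sets. Array 1a was the higher one in all groups for 10% of the probe sets tested, and array 1b for 6.93%. Whether the letters mark a batch was not tested.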
